A study of Mus musculus with 4 samples.

Results

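The genes described are 8 of the 55487 genes counted, all of the complement system: C1qa, C1qb and C1qc, the 3 chains of C1q, the components C4b and C3, the inhibitors Serping1 and Cd59a, and the receptor C3ar1. They were taken by symbol from the count tables, with a value for every library and cell class. Cd59a was selected on its measured level, which lay among the lowest ratios in endothelial cells of the old pair of libraries, EC-K4KO over WT Cre, so its values between the genotype labels are a description with no test. All 8 genes had UMIs (unique molecular identifiers, each counting 1 captured RNA molecule) in the kept cells, and no member was dropped for a low level.

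The study sequenced single cells from the brains of C57BL/6J mice in 4 libraries, from young and from old mice of the genotypes WT Cre and EC-K4KO. Values are given in 1 order throughout, young WT Cre first, then the young EC-K4KO library, then the same genotypes from old mice. Both genotypes carry a tamoxifen-inducible Cre under the promoter of Cdh5, the gene of the endothelial cadherin, which acts in endothelium throughout the body and not in the brain alone, and per the study's methods tamoxifen was given to induce it, while the labels name no drug treatment. EC-K4KO mice also carry floxed Klf4, so that the transcription factor Klf4 is meant to be lost from endothelial cells, and the WT Cre littermates are controls for Cre itself. The labels give no age beyond young and old, which the study defines as ranges of months for its cohorts. The study's methods state that both sexes were used. They describe enrichment or sorting of endothelial cells for other assays and state no such step for the single-cell libraries. The number of animals behind each library is not given in the sources used here, and each group is 1 library, so differences between 2 libraries carry intervals for counting error only and no test.

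Complement is a set of secreted and membrane proteins that tag surfaces for uptake or lysis. In the classical route C1q recognises a surface, its proteases cleave C4 and C2, and the enzyme so formed splits C3 into C3b, which coats the surface, and C3a, which signals through the receptor encoded by C3ar1. Serping1, the C1 inhibitor, blocks the C1 proteases, and Cd59a keeps the terminal pore from forming on the cell's own membrane. In the brain C1q comes mostly from microglia and marks synapses for removal.

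After filtering, 20737 cells were kept, 4146 to 6555 per library, and between 7 and 42 cell barcodes were shared by any 2 libraries. Cells were clustered without the complement genes and given class names from marker genes, so the names are rebuilt and may differ from those of the study. Endothelial-like cells numbered 2750, 3316, 2177 and 1899 in that order, and microglia-like cells 327, 574, 1211 and 628. All 8 endothelial and all 8 microglial markers were above 20 CPM (counts per 1000000 UMIs of the cell group) in their class in every library. The labels call every sample brain endothelial cells, and endothelial-like cells were 39.3% to 61.2% of the kept cells. The check of the genotype went against the labels: Klf4 in endothelial-like cells stood at 1707, 3282, 2100 and 3296 CPM, higher in both libraries labelled EC-K4KO. The counts do not tell whether those UMIs came from within the floxed part of the gene, and the libraries are therefore named by their labels. The old library labelled EC-K4KO was also the only one with over 100 cells in a cluster led by Camp and Ngp, genes of immature neutrophils, at 156 cells against 1 to 5.

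The 3 C1q genes lie side by side on chromosome 4, within 18.7 kb at chr4:136880126-136898844 (RefSeq, GRCm38.p6), with no other annotated gene between them. Since they also moved together across cell classes, the bases before the start of C1qb and of C1qc are shown beside those of Cd59a, the member with its highest share of UMIs in endothelium. The windows hold 250, 228 and 202 bases in that order, since 22 bases before C1qc and 48 before Cd59a that fall within the annotated gene were left out. Capitals mark GAGGAA, the purine-rich core read by PU.1 and other ETS factors, and CACCC, the core read by Klf factors, on either strand (TTCCTC and GGGTG on the other). In capitals, neighbouring matches may run together.
C1qb, chr4:136886201-136886450, minus strand: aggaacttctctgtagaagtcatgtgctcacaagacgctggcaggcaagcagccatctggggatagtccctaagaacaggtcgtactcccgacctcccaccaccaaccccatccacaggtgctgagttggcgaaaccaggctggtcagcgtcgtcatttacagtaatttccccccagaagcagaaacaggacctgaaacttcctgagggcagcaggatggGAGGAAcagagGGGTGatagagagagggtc
C1qc, chr4:136892937-136893164, minus strand: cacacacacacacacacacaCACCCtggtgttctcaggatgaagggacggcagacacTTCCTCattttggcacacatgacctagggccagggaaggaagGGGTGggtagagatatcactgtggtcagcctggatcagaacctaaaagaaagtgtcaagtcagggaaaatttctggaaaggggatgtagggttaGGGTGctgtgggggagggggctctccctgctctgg
Cd59a, chr2:104095551-104095752, plus strand: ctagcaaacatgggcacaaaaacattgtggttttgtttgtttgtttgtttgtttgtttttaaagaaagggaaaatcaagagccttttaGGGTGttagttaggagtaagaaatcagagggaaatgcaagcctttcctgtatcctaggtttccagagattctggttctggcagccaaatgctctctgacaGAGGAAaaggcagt
GAGGAA was found once in each of the 3 windows, and CACCC was found 1 time before C1qb, 3 times before C1qc and 1 time before Cd59a. The windows of C3 and of C3ar1, of 250 bases and not shown, each held GAGGAA 0 times and CACCC 1 time. Of 32851 promoters in that table, 23.3% held GAGGAA and 52% held CACCC in a window of 250 bases. The shares were 21.2% and 48.9% at 228 bases and 18.9% and 44.8% at 202 bases, so matches of either kind are common and describe letters only.

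**Figure D1:**
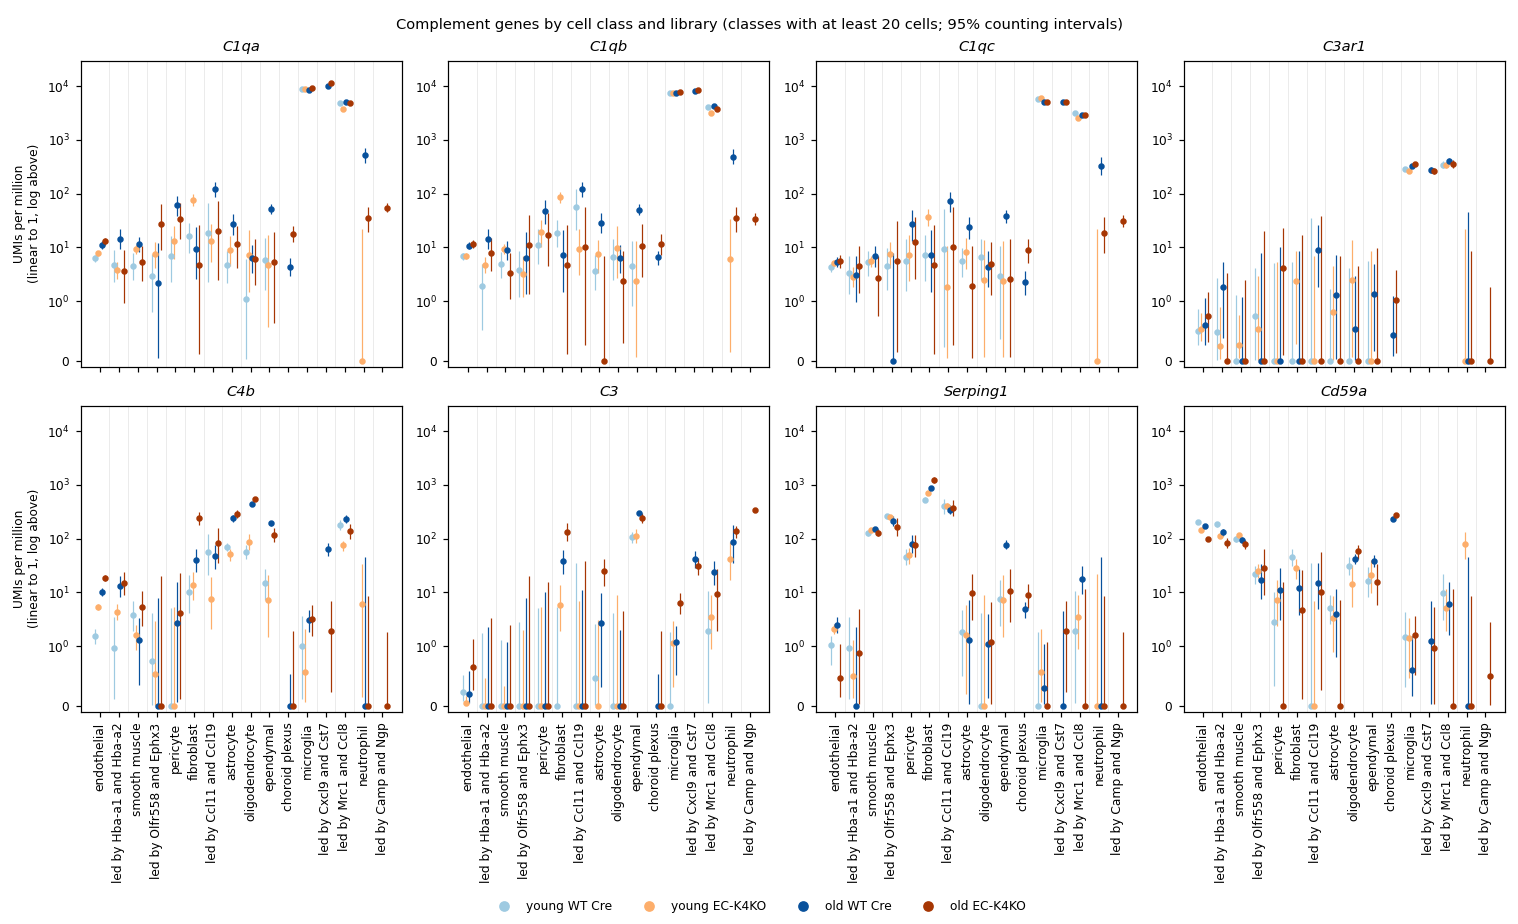
CPM of each complement gene (vertical axis, linear up to 1 and logarithmic above) by cell class or cluster and library (colours), with 95% Poisson intervals, for classes of at least 20 cells. C1q and C3ar1 stand high in microglia-like cells and in the clusters led by Cxcl9 and Cst7 and by Mrc1 and Ccl8, Serping1 in fibroblast-like and mural cells, and Cd59a in endothelial-like, smooth muscle-like and choroid plexus-like cells.

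C1q was highest in microglia-like cells and macrophage clusters, C4b in oligodendrocyte-like and astrocyte-like cells, C3 in ependymal-like and myeloid cells, Serping1 in fibroblast-like and mural cells, and Cd59a in endothelial-like and choroid plexus-like cells (the plot of levels by class). C1qa stood at 8821, 8739, 8612 and 9365 CPM in microglia-like cells, in the library order above. C1qb stood at 7582, 7607, 7635 and 7947 there. C1qc stood at 5799, 5998, 5052 and 5112. The 4 libraries thus lay within a narrow band for each chain, and every microglia-like cell of the young WT Cre library held a C1qa UMI even after each cell was thinned to 1000 UMIs.

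Microglia-like cells held 82.6%, 84.7%, 82.4% and 68.5% of all C1qa UMIs. The rest lay almost wholly in a pair of clusters without a class name. The cluster led by Mrc1 and Ccl8, with the markers of border macrophages and of dendritic cells, had C1qa at 4923, 3766, 5052 and 4807 CPM, the last from 49 cells. In the cluster led by Cxcl9 and Cst7, which also had Spp1, Gpnmb, Clec7a and Itgax among its leading genes, C1qa reached 10138 CPM in old WT Cre (93 cells). It reached 11299 CPM in the other old library (135 cells). Each young library held 9 cells of that cluster. It gave 11.9% of C1qa UMIs in old WT Cre, against 27.1% in the other old library. Across 48 class and library points C1qa followed C1qc (r = 0.985), C1qb (r = 0.979) and Trem2, a microglial lipid receptor (r = 0.975), more closely than any other of 14079 genes. Those points share libraries and cell classes and the r is a description.

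Between libraries, C1q in microglia-like cells differed little. The log2 ratio of old over young WT Cre was -0.03 for C1qa (95% counting interval -0.06 to -0.01), 0.01 for C1qb and -0.20 for C1qc (-0.23 to -0.17). For the libraries labelled EC-K4KO, old over young, the ratios were 0.10, 0.06 and -0.23 in the same order. None of the 4 members with a mean of at least 10 CPM there was 1.5-fold apart in any pair. Over all genes of the old over young WT Cre pair, 4.11% were that much higher and 21.4% lower, and with the EC-K4KO label 5.48% and 22.9%. Between the labels the shares were 2.33% and 2.99% in the young pair and 1.75% and 1.63% in the old. The median gene of this class had a log2 ratio of -0.26 for old over young with either label, and TMM scaling, which centres on such genes, gave C1qa 0.31 and C1qb 0.36 higher in old WT Cre and turned C1qc to 0.15. In WT Cre the direction of C1qa and C1qc with age thus depended on the scale, while C1qb stood at 0.01 and 0.36.

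The only test across libraries was an additive model of age and genotype label, fitted by edgeR's quasi-likelihood method to the 4 class sums of all genes with 1 residual degree of freedom and TMM scaling, and adjusted by the Benjamini-Hochberg method over all genes of the class. Of 5 members tested in microglia-like cells, 4 passed as higher with age, where 16.0% of 11038 genes did. C1qa rose by 0.32 on the log2 scale (adjusted p = 2.54e-05) and C1qb by 0.32 (adjusted p = 2.44e-05), while C1qc was 0.07 higher (adjusted p = 0.509). C3ar1 and C4b were the others, C4b at no more than 3.17 CPM, from 2 to 20 UMIs, and it did not pass in DESeq2. With the genotype label 0 of the 5 passed in edgeR, where 0.426% of genes were higher and 0.761% lower, 0 had an unadjusted p under 0.05 and 0 passed in DESeq2.

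Outside the microglia and macrophage clusters C1q was seen at a small fraction of the microglial level. The summed C1q of endothelial-like cells was 0.0786%, 0.0889%, 0.128% and 0.134% of that in microglia-like cells of the same library. The summed 8 microglial markers stood in those endothelial-like cells at 52.7, 54.5, 54.1 and 56.7 CPM, which is 0.264%, 0.251%, 0.441% and 0.447% of their microglial level. The range was 0.0460% to 0.830% for single markers, with none at 0. C1qa made up 35.9% to 43.2% of the C1q UMIs in endothelial-like cells and 39.1% to 41.8% in microglia-like cells. The share of endothelial-like cells with a C1qa UMI, after thinning to 1000 UMIs, ran from 0.655% to 1.29%, beside 99.8% to 100% of microglia-like cells. In the additive model C1qa rose with age in endothelial-like cells by 0.93 (adjusted p = 0.00848) and C1qb by 0.84 (adjusted p = 0.0124), and C1qb did not pass in DESeq2 (adjusted p = 0.0618). C1qc had an age term of 0.35 (adjusted p = 0.241), with ratios of old over young of 0.34 in WT Cre (-0.09 to 0.76) and 0.08 with the label EC-K4KO (-0.37 to 0.49). Endothelial-like clusters differed in direction. C1qa was higher in the old library in 6 of 6 clusters of at least 50 cells in WT Cre, with the interval above 0 in 2. With the label EC-K4KO it was higher in 5 of 7, with the interval above 0 in 1 and below 0 in 1. There the ratios ran from -1.54 (-2.79 to -0.60) in the cluster led by Cytl1 and Fbln5 to 2.11 (1.65 to 2.56) in that led by Krt14 and Krt15. The clusters divide the same cells, so these counts describe the difference and do not repeat it. C1qb was higher in 5 of 6 and 4 of 7 clusters, and C1qc in 3 of 6 and 3 of 7. Cells led by Krt14 and Krt15 made up 17.6%, 25.3%, 32.1% and 32.8% of endothelial-like cells, and those led by Rnu11 and Ndnf 32.8%, 25.8%, 10.2% and 9.90%. Microglia-like cells were 7.27% and 8.76% of kept cells in the young libraries and 21.9% and 15.1% in the old, and the part of free microglial RNA in that rise was not tested. In pericyte-like cells C1qa also rose with age, by 2.34 (adjusted p = 0.000284), on 5 to 22 UMIs per library, as 1 of 2 members tested, where 1.36% of genes passed as higher. It did not pass in DESeq2, and 2 or 3 of the 8 microglial markers were at 0 in that class. For the genotype label 0 of the 2 members passed there in edgeR or DESeq2 or had an unadjusted p under 0.05, beside 0.138% of genes higher and 0.0689% lower.

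C3ar1, the receptor for the C3a fragment, was found in the same cells as C1q. It stood at 285, 260, 329 and 360 CPM in microglia-like cells and at 345, 340, 401 and 358 in the cluster led by Mrc1 and Ccl8. In endothelial-like cells it did not exceed 0.744 CPM, and after thinning 0 to 2 cells per library held a UMI. The old libraries were above both young ones in microglia-like cells, by 0.20 on the log2 scale in WT Cre (0.07 to 0.34) and by 0.47 in the libraries labelled EC-K4KO (0.34 to 0.60). C3ar1 rose with age in the additive model by 0.62 (adjusted p = 2.85e-12). The share of thinned cells with a C3ar1 UMI was 27.5%, 22.5%, 27.7% and 28.2%. Its nearest genes over the 48 points were Ccl12 (r = 0.969), Fcrls (0.966) and Abcc3 (0.964).

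Microglia-like cells fell into 2 clusters whose shares differed with age, and C3ar1 differed between them. The cluster led by P2ry13 and P2ry12, receptors typical of resting microglia, held 77.7% and 82.8% of the young microglia-like cells and 31.5% and 34.2% of the old. The cluster led by Tnf and Il1a, both inflammatory cytokines, held the remaining 22.3%, 17.2%, 68.5% and 65.8%. Within the P2ry13 and P2ry12 cluster C3ar1 was at 258, 216, 181 and 195 CPM, with both old libraries below both young ones. Within the Tnf and Il1a cluster it was at 352, 400, 379 and 420, with the old library higher by 0.10 in WT Cre (-0.10 to 0.32) and by 0.07 in the libraries labelled EC-K4KO (-0.11 to 0.25). In the P2ry13 and P2ry12 cluster the log2 ratio of old over young was -0.51 in WT Cre (-0.74 to -0.29) and -0.14 with the EC-K4KO label (-0.41 to 0.10). On the CPM scale neither cluster had C3ar1 higher in the old libraries beyond its counting interval. The median gene of the class was lower in the old libraries on that scale, and the cluster ratios were not recomputed with TMM scaling. Whether the mix of clusters accounts for the higher C3ar1 of the old class was not tested. C1qa, by contrast, was higher in the P2ry13 and P2ry12 cluster than in the other one in every library, at 9259, 8956, 10397 and 10255 against 7762, 8045, 8008 and 9038 CPM.

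**Figure D2:**
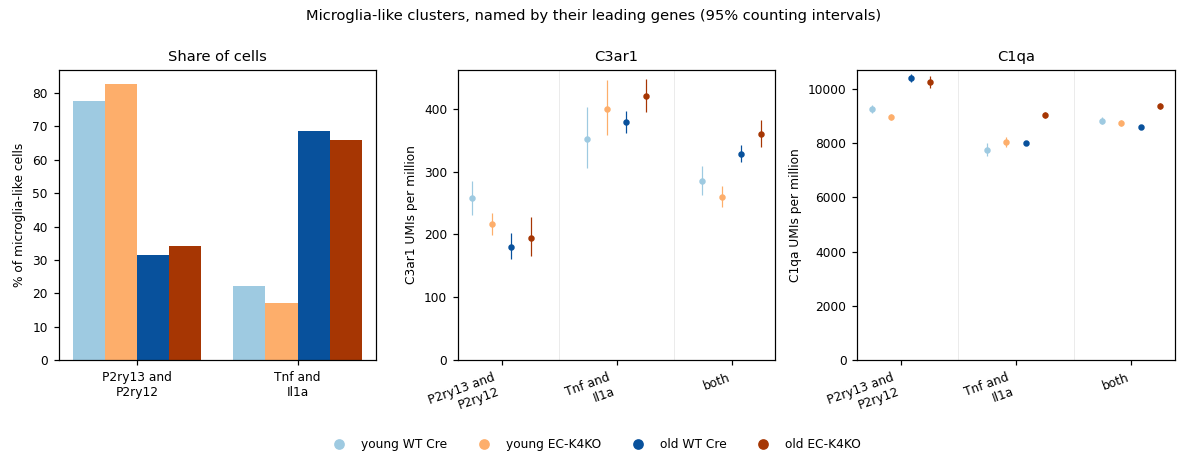
Left, the percent of microglia-like cells in each of 2 clusters, by library (bars from 0). Middle and right, CPM of C3ar1 and C1qa in each cluster and in both together, with 95% Poisson intervals. C3ar1 of the whole class is higher in the old libraries (329 and 360 against 285 and 260), while the cluster with more C3ar1 holds 68.5% and 65.8% of the old cells.

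C4b is the mouse C4 gene, whose product is cleaved by the C1 proteases. In oligodendrocyte-like cells it stood at 56.7 and 87.2 CPM in the young libraries, the second from 39 cells, and at 444 and 552 in the old ones. In astrocyte-like cells it stood at 70.7 and 50.8 in the young libraries and at 239 and 291 in the old. Both old libraries lay above both young ones in each of these classes. The share of all genes in that order was not counted, and the intervals cover counting error only. The gene most like C4b over the 48 points was Kcnj10, a potassium channel of glia (r = 0.750). The log2 ratio of old over young was 2.96 in WT Cre oligodendrocyte-like cells (2.56 to 3.41) and 2.64 in those labelled EC-K4KO (2.17 to 3.19), where 8.48% and 11.4% of genes were at least 1.5-fold higher. In astrocyte-like cells the ratios were 1.76 (1.44 to 2.08) and 2.51 (2.08 to 2.97), beside 12.7% and 10.6% of genes.

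In the additive model C4b rose with age in astrocyte-like cells by 2.08 (adjusted p = 2.40e-21), 1 of 37 genes that passed as higher among 9507 (0.389%, beside 0.494% lower). The genotype term was -0.09 (adjusted p = 0.982), and 0 of the 2 members tested passed for it in edgeR or DESeq2 or had an unadjusted p under 0.05, where 0.0947% of genes were higher and 0.158% lower. C4b also passed with age in DESeq2 in that class (adjusted p = 2.08e-05). Oligodendrocyte-like cells were under the 50-cell minimum in 1 library and were not tested. After thinning to 1000 UMIs, 23.1% (exact binomial interval 18.6% to 28.1%) and 32.1% (24.5% to 40.6%) of old oligodendrocyte-like cells held a C4b UMI, against 5.95% and 5.13% of the young. In the choroid plexus-like cells of the old libraries, 0 C4b UMIs were found in 170 and 57 cells, where a floor of 3 UMIs stands at 0.427 and 1.57 CPM.

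Ependymal-like cells, which line the ventricles, had C4b at 14.9 and 7.12 CPM in the young libraries and at 191 and 118 in the old. The class held 20 to 113 cells, and the ratio of old over young WT Cre, 3.62 (2.79 to 4.76), was 1.60 when each cell had equal weight. In fibroblast-like cells C4b was at 10.2, 14.0, 40.3 and 238 CPM, the last from 51 UMIs in 8 of 29 cells. The cluster led by Mrc1 and Ccl8 differed from these: C4b stood at 178, 74.5, 235 and 138 there, lower in the library labelled EC-K4KO at both ages, with log2 ratios of -1.26 in the young pair (-1.70 to -0.82) and -0.75 in the old (-1.28 to -0.27).

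Endothelial-like cells had far less C4b, at 1.55, 5.34, 10.1 and 18.6 CPM. The old library stood above the young one for each label, and the library labelled EC-K4KO above WT Cre at each age. Most of these UMIs came from 1 cluster. The cluster led by Ackr1 and Sele, a chemokine-binding receptor and a leukocyte adhesion molecule of venules, had the highest venous marker level of the 8 endothelial-like clusters and held 80%, 77.9%, 84.4% and 87% of endothelial C4b UMIs. C4b stood at 7.95, 22.1, 36.5 and 59.8 CPM in it and did not exceed 7.80 in any other endothelial-like cluster of at least 50 cells. Its share of endothelial-like cells was 5.49%, 8.50%, 9.83% and 12.8% in the same order.

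Within the Ackr1 and Sele cluster, old over young was 2.18 on the log2 scale in WT Cre (1.63 to 2.80) and 1.43 in the libraries labelled EC-K4KO (1.12 to 1.74). The library labelled EC-K4KO stood 1.46 above WT Cre in the young pair (0.93 to 2.07) and 0.71 above it in the old pair (0.38 to 1.05). The same order held in the endothelial-like cells outside that cluster, at 0.368, 1.45, 2.06 and 3.32 CPM, from 8 to 51 UMIs. In the additive model of the whole endothelial class, 3 of 6 members tested beside Cd59a passed as higher with age, where 9.5% of 14947 genes did, and C4b rose by 2.29 (adjusted p = 0.00288). With the genotype label, and with Cd59a, which was selected on that contrast, again left out, 0 of 6 passed in edgeR, where 0.308% of genes passed as higher and 0.281% as lower. The term of C4b for the genotype label was 1.27 (adjusted p = 0.0891 in edgeR and 0.0144 in DESeq2), and it passed in 2 of 5 fits. Of those 6, only C4b had an unadjusted p under 0.05 in edgeR, as did 11.0% of all genes, and only C4b passed in DESeq2, where 0.763% of all genes did. C4a, a near-identical copy annotated as a transcribed pseudogene on the same chromosome, did not exceed 2.90 CPM in any class of at least 50 cells, and reads shared by the pair cannot be placed by these counts.

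**Figure D3:**
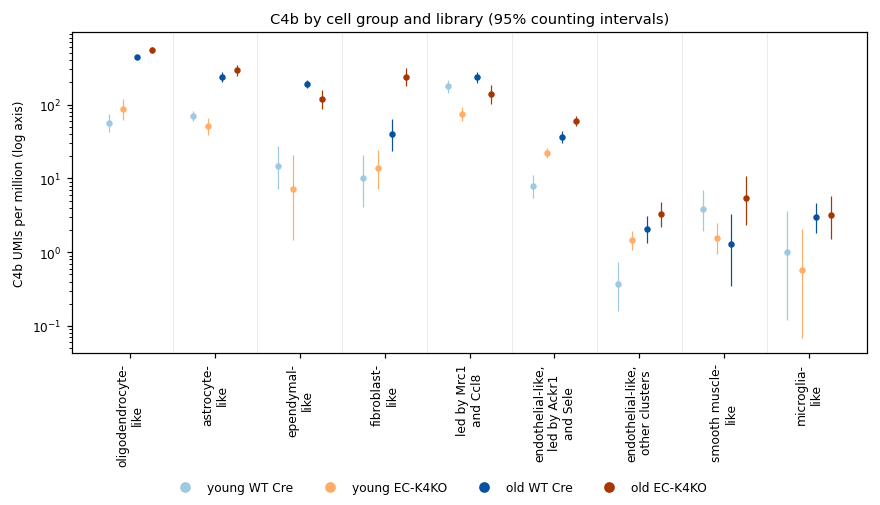
C4b CPM (log axis) by cell group and library (colours), with 95% Poisson intervals. Oligodendrocyte-like and astrocyte-like cells of the old libraries sit between 239 and 552, above the young ones between 50.8 and 87.2, and the endothelial-like cluster led by Ackr1 and Sele climbs from 7.95 in young WT Cre to 59.8 in the old EC-K4KO-labelled library.

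C3, on which all routes of activation meet, was at or near 0 in endothelial-like and mural cells. Endothelial-like cells had 2 to 7 C3 UMIs per library, at most 0.651 CPM, and smooth muscle-like and pericyte-like cells had none, which in the young library labelled EC-K4KO allows up to 0.263 CPM of smooth muscle-like cells. Ependymal-like cells had C3 at 107 and 111 CPM in the young libraries and at 302 and 244 in the old. The old library was higher by 1.49 on the log2 scale in WT Cre (1.13 to 1.88) and by 1.12 in the libraries labelled EC-K4KO (0.61 to 1.67), from classes of 20 to 113 cells. With equal weight for each cell the first ratio was 0.73.

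Myeloid cells held much of the remaining C3. In the old library labelled EC-K4KO the cluster led by Camp and Ngp had 337 CPM and gave 65.3% of all C3 UMIs there, whereas ependymal-like cells gave 76.4% in old WT Cre. Monocyte-like cells of the old library labelled EC-K4KO had 287 CPM, from 54 cells. In microglia-like cells C3 was at 0 in young WT Cre, where the floor of 3 UMIs stands at 1.51 CPM, and at 1.13, 1.20 and 6.34 in the others. In fibroblast-like cells it was at 0, 5.83, 37.9 and 136 CPM, the last from 29 UMIs in 7 of 29 cells. Astrocyte-like cells of the old library labelled EC-K4KO had 24.9 CPM, from 13 UMIs in 5 of 127 cells, against 0 to 2.64 elsewhere. The gene most like C3 over the 48 points was Gm31814 (r = 0.820).

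Serping1, the inhibitor of the C1 proteases, marked the stromal cells of the vessel wall. Fibroblast-like cells had it at 528, 721, 879 and 1243 CPM, from 29 to 60 cells. The cluster led by Ccl11 and Ccl19, in which 5 of 7 pericyte markers passed, had it at 398, 410, 346 and 378. Both are far above endothelial-like cells, where Serping1 did not exceed 2.50 CPM and at most 0.181% of thinned cells held a UMI. In smooth muscle-like cells it stood at 127, 144, 153 and 129 CPM, and in the cluster led by Olfr558 and Ephx3, which carries smooth muscle markers, at 258, 251, 214 and 167. Pericyte-like cells had less, at 46.3, 48.5, 79.7 and 75.3.

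In fibroblast-like cells each old library stood above each young one. Old over young was 0.74 in WT Cre (0.52 to 0.95) and 0.79 in the libraries labelled EC-K4KO (0.57 to 0.99), in a class in which 14.6% and 21.9% of genes were at least 1.5-fold higher. The class was made of 2 clusters in unequal mix. The larger, led by Mfap5 and Rbp4, held 16, 45, 23 and 24 cells, with Serping1 at 174, 799, 915 and 1442 CPM. Its partner, led by Coch and Tcf21, held 30, 15, 16 and 5 cells, with Serping1 at 693, 544, 795 and 356 CPM. Old over young was 2.38 (1.90 to 2.93) and 0.85 (0.63 to 1.08) in the first cluster, and 0.20 (-0.14 to 0.53) and -0.56 (-1.52 to 0.18) in the second, so that the higher level in old libraries did not hold in both. In smooth muscle-like cells the additive model gave 0.09 for age (adjusted p = 0.805) and -0.00137 for the genotype label (adjusted p = 1.00), with the 4 levels in no order of age. In pericyte-like cells it gave 0.80 for age (adjusted p = 0.217). In smooth muscle-like cells 0 of 6 members tested passed for age in edgeR or DESeq2 and 1 had an unadjusted p under 0.05, where 3.81% of genes passed as higher and 2.63% as lower. For the genotype label the counts were 0, 0 and 0, beside 0.188% and 0.283% of genes. The genes most like Serping1 were Col1a2, a collagen (r = 0.940), Ddr2, a collagen receptor (0.937), and Ogn, a matrix proteoglycan (0.934).

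Cd59a, the guard against the terminal pore, was the 1 member with most of its UMIs in endothelium, at 84.7%, 71.1%, 53.3% and 56.6% of all Cd59a UMIs. Endothelial-like cells had 201, 142, 175 and 99.6 CPM, so that each library labelled EC-K4KO lay below both WT Cre libraries. The ratio of the EC-K4KO label over WT Cre was -0.51 on the log2 scale in the young pair (-0.56 to -0.45) and -0.81 in the old pair (-0.92 to -0.71). It was the latter pair that put Cd59a on the list. In the young pair only Cd59a averaged 10 CPM or more, and it was not 1.5-fold apart, where 1.25% of genes were higher and 1.13% lower by that much. In the old pair 1 of the 3 other members at that level was, C4b as higher, where 1.45% of genes were. C4b was no longer counted without the cluster led by Ackr1 and Sele or with cells weighted equally. Cd59a was lower by that much, as were 1.19% of genes, which is how it was selected, and nothing is read from it. Between ages no member beside Cd59a averaged 10 CPM in WT Cre, where 4.14% of genes were higher by that much and 7.0% lower. With the EC-K4KO label both other members at that level, C1qa and C4b, were higher by 1.5-fold, beside 4.34% of genes higher and 5.56% lower. C1qa averaged 10.3 CPM there, and the count became 1 under some of the alternatives given in the closing section. After thinning to 1000 UMIs, 18.8%, 13.7%, 16.0% and 9.06% of endothelial-like cells held a Cd59a UMI.

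The clusters divide the same endothelial-like cells, so their values describe and do not repeat the difference, and those of the old pair come from the values that selected the gene. Cd59a was lower in the library labelled EC-K4KO than in WT Cre in each of the 6 endothelial-like clusters with at least 50 cells in both young libraries, with log2 ratios from -0.64 to -0.35. In the old pair it was lower in each of 7 such clusters, with ratios from -1.03 to -0.45. Cells led by Cytl1 and Fbln5, the cluster with the highest arterial marker level, had 195, 126, 173 and 84.6 CPM. Those led by Ackr1 and Sele had 186, 127, 151 and 88.0. A further cluster led by Hba-a1 and Hba-a2, with endothelial and erythroid markers together, had 184, 112, 131 and 82.0.

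**Figure D4:**
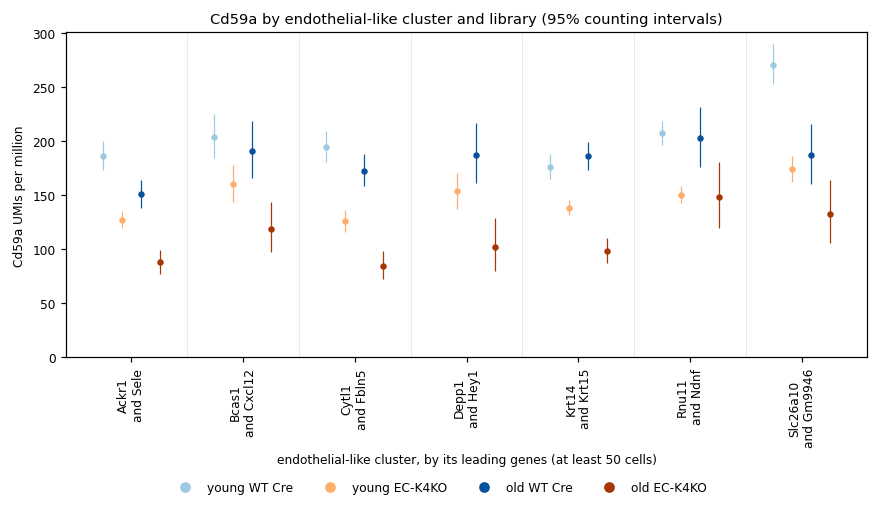
Cd59a CPM (axis from 0) in endothelial-like clusters of at least 50 cells, named by their leading genes, by library (colours), with 95% Poisson intervals. In each cluster the library labelled EC-K4KO lies below WT Cre of the same age where both are shown, for example at 88.0 against 151 in the old pair of the cluster led by Ackr1 and Sele.

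Other cells with Cd59a varied in the order of the labels. Smooth muscle-like cells had 99.2, 119, 93.6 and 79.0 CPM, with the label EC-K4KO 0.26 higher in the young pair (0.07 to 0.45) and -0.24 in the old (-0.57 to 0.07). The smooth muscle-like cluster led by Actg2 and Cnn1, contractile genes, had 166, 214, 171 and 149. Choroid plexus-like cells had 232 CPM in old WT Cre and 273 with the old EC-K4KO label, a log2 ratio of 0.23 (0.09 to 0.38). Beside endothelial-like cells and the cluster led by Hba-a1 and Hba-a2, 7 classes or clusters averaged 10 CPM or more in the young pair, 5 with a ratio above 0 and 2 below. In the old pair there were 8, with 4 above and 4 below. Of these the interval lay wholly above 0 in choroid plexus-like cells and in neuron-like cells, the latter at 3.56 (1.46 to 9.48) from 20 and 1 UMIs. It lay wholly below 0 in ependymal-like cells, at -1.20 (-2.80 to -0.09) from 6 and 58 UMIs, and in the cluster led by Igkc and Jchain, antibody genes, at -1.46 (-3.19 to -0.05) from 6 and 14 UMIs. With age, endothelial Cd59a stood at -0.20 in WT Cre (-0.27 to -0.14) and -0.51 in the libraries labelled EC-K4KO (-0.60 to -0.42), where the median gene of the class stood at -0.19 and -0.15. The old libraries in these ratios are those that selected the gene, so its age values too are a description with no test. The nearest gene over the 48 points was Synm, an intermediate filament gene (r = 0.849).

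Of a wider list of 49 complement genes, 30 reached 20 CPM in at least 1 class of 50 cells, among them 10 of 15 genes of classical and lectin initiation, 6 of 8 convertase components and substrates, 7 of 11 regulators and 7 of 9 receptors. None of the 6 terminal components did. In endothelial-like cells 23 of the list beside Cd59a were tested, of which 9 passed in edgeR as higher with age and 0 as lower, beside 9.5% and 5.25% of all genes tested. In DESeq2 5 of the 23 passed as higher and 0 as lower, beside 5.32% and 1.18% of all genes. With no filter on low counts 9 of 39 passed as higher and 2 as lower, Cd55 and Colec12, beside 6.83% and 7.24%. The median age term of the 23 was 0.35, against -0.01 over all genes. With the genotype label 0 of the 23 passed in edgeR, beside 0.308% of all genes as higher and 0.281% as lower. C4b and Cd93 had an unadjusted p under 0.05, as did 11.0% of all genes. In DESeq2 C4b alone passed, beside 0.763% of all genes.

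Among the genes that rose with age in endothelial-like cells were Cfb, the factor B protease of the alternative route, by 2.39 (adjusted p = 0.00153), and C1s1, a C1 protease, by 1.54 (adjusted p = 0.0241). C1s1 did not pass in DESeq2 (adjusted p = 0.137). Both levels were low. Cfb stood at 1.59, 1.92, 7.10 and 9.58 CPM, from 41 to 108 UMIs, and C1s1 at 1.13, 0.948, 2.57 and 2.88 CPM, from 29 to 41 UMIs. C1s1 reached far higher levels in mural and fibroblast-like cells. The summed markers of pericytes stood in endothelial-like cells at 145, 181, 150 and 56.8 CPM (7 genes), those of smooth muscle at 95.9, 168, 119 and 33.6 (6 genes) and those of fibroblasts at 4.86, 5.06, 3.95 and 3.35 (7 genes). No marker was at 0 there except Slc6a13 of the fibroblast list in the old library labelled EC-K4KO. The part of mural and fibroblast RNA in the rises of Cfb and C1s1 was not tested. Clu, which binds the terminal complex in plasma, rose by 1.19 (adjusted p = 0.00532), from 111 and 82.7 CPM in the young libraries to 180 and 216 in the old. It stood at 4824 to 5792 in astrocyte-like cells, whose part in the endothelial value was not tested. Cd93, a C1q-binding membrane protein of endothelium, stood at 424, 462, 359 and 413 CPM in endothelial-like cells and did not pass with age (-0.05, adjusted p = 0.664).

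Microglia-like cells had 15 genes of the list tested, of which 5 rose and 1 fell with age, beside 16.0% and 11.6% of all genes. C5ar1, the receptor for the C5a fragment, rose by 1.13 (adjusted p = 2.35e-31) and stood at 126, 143, 267 and 222 CPM. Cd93 fell by 1.79 (adjusted p = 0.00188) and did not pass in DESeq2 (adjusted p = 0.443). It stood there at 6.02, 7.06, 0.601 and 2.85 CPM, from 4 to 25 UMIs. The summed 8 endothelial markers stood in microglia-like cells at 373, 273, 82.2 and 133 CPM, none of them at 0, and so were also lower in both old libraries, and the part of endothelial RNA in that fall was not tested. In mural cells the C1 proteases stood beside their inhibitor: C1s1 was at 66.9, 53.8, 56.9 and 52.5 CPM in smooth muscle-like cells, where it did not pass for age (adjusted p = 0.787). In pericyte-like cells C1s1 fell with the genotype label by 1.94 (adjusted p = 0.00138), on levels of 82.8, 11.8, 11.0 and 25.1 CPM. Young WT Cre had 59 UMIs against 4 to 8 in the other libraries, the old pair lay in the opposite order, and the gene did not pass in DESeq2. Colec12, a collectin receptor, stood at 759, 635, 448 and 548 CPM in pericyte-like cells.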

How the data were processed

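Brain cells, called brain endothelial cells in the labels, were measured by droplet single-cell RNA sequencing in 4 libraries, 1 per group. The deposited values are raw UMI counts of genes by barcode. Cell Ranger 6.0.2, named in the file headers, was the tool the authors used, and the submitters' processing notes name the mouse build GRCm38 (mm10). The lowest barcode held 500 UMIs. The study describes fewer cells than the files hold, and its annotation was not used here.

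A barcode had to hold 500 genes and 1000 UMIs or more, with no more than 10% of UMIs mitochondrial (21714 of 26422 passed). Scrublet's automatic threshold marked 50, 145, 122 and 17 barcodes, so the top scores were removed instead, at 0.8% per 1000 cells (977 barcodes). The libraries held 46794601, 88812581, 51945411 and 30655769 UMIs in the order of the report. Cells were clustered with scanpy 1.11.5 and leidenalg 0.10.2 (2000 variable genes without the complement list, 30 components, 20 neighbours, resolution 1). Of 31 clusters 24 were named: exactly 1 class had to have at least 3 and at least 50% of its markers at 20 CPM and at 25% of the highest cluster, and no other class more markers among the 10 leading genes. This naming rule was settled after clusters had been seen.

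UMIs were summed per class and library and scaled to 1000000 (CPM). Ratios had 0.5 UMIs added and are described at a mean of at least 10 CPM and a fold of at least 1.5. Intervals are 95% (Poisson for levels, conditional binomial for ratios, Clopper-Pearson for shares) and cover counting error only. The additive model (age and genotype label) used edgeR 4.0.16 on sums of classes with at least 50 cells in each library, at an adjusted p under 0.05, with DESeq2 1.42.0 as an alternative. It takes the effects of age and label as additive. Its p-values are judged against how far the 4 libraries depart from additive effects, with information shared across genes. That departure may be technical, and no spread between replicate libraries or animals of a group enters it. The fit was run on simulated counts with known changes as a check of the code only, which says nothing of the spread in these data. Genes named are the members and those of the complement list that reached 20 CPM in a class of at least 50 cells, with C4a named for its likeness to C4b, and the 3 genes most alike in log2(CPM + 1). A minimum of 20 cells, the 2 microglia-like clusters apart and endothelial-like cells without the cluster led by Ackr1 and Sele were added after seeing the data. The members and lists were chosen with earlier results of these data known. Other alternatives were a stricter cell filter, no doublet removal, resolution 0.5, classes from each cell's own markers, equal weight per cell, TMM or DESeq2 size factors and no filter on low counts. Sequences and positions come from RefSeq tables of GRCm38.p6, which held 5 of the 8 promoters.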

Additional observations from a re-analysis of the deposited data

How the results depend on the processing

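The log2 ratios of 15 member and class pairs between libraries were recomputed under 8 alternatives, which gave 376 values, of which 309 lay within the counting interval of the reported ratio, 65 outside it and 2 with the opposite sign of a ratio of at least 1.5-fold. Both were Serping1 in pericyte-like cells, old over young of the label EC-K4KO, reported as 0.65, which became -0.43 without doublet removal and -0.30 with cells assigned by their own markers. Of 140 values for 22 ratios of at least 1.5-fold, 138 kept their sign and 124 stayed at least 1.5-fold. The number of members at least 1.5-fold apart in endothelial-like cells was 2 in the old pair and became 5 with cells assigned by their own markers, 1 without the cluster led by Ackr1 and Sele and 1 with cells weighted equally. Cd59a, selected on that pair, was among them each time, and 2.64% to 3.27% of all genes were that far apart, reported value included. For old over young it was 0 in WT Cre, and 2 with cells assigned by their own markers or weighted equally, beside 8.79% to 11.6% of all genes. For old over young with the label EC-K4KO it was 2 and became 4 with cells assigned by their own markers and 1 without doublet removal, in cells with no UMI of 4 microglial markers and with cells weighted equally, beside 8.76% to 10.7% of all genes, and Cd59a was in none of these counts. In microglia-like cells it was 0 and became 1 with TMM scaling for old over young with the label EC-K4KO, where the share of all genes went from 28.4% to 20.8%. The cause was not tested.

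DESeq2 passed fewer genes than edgeR in most classes. With age it passed 971 against 2205 in endothelial-like, 639 against 3050 in microglia-like, 7 against 84 in astrocyte-like, 12 against 144 in pericyte-like and 56 against 683 in smooth muscle-like cells. With the genotype label it passed more in endothelial-like cells, 114 against 88, and fewer elsewhere, 11 against 131 in microglia-like, 1 against 24 in astrocyte-like, 0 against 15 in pericyte-like and 7 against 50 in smooth muscle-like cells. In endothelial-like cells no low-count filter gave 3854 genes for age and 792 for the label, and the stricter cell filter gave 144 for the label. No paired analysis was possible because each group is 1 library, and for the same reason no replicate could be left out. Classes of under 100 cells and levels under the 3-UMI floor limit what could be seen.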
